A study of Mus musculus with 15 samples.

Results

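The renin-angiotensin-aldosterone system was followed in mouse heart through 7 genes of the deposited count table, chosen by name. They are Agt (angiotensinogen), Ace (angiotensin-converting enzyme), Cma1 (mast cell chymase), Agtr1a (the angiotensin II receptor of type AT1a), Mas1 (the receptor for angiotensin-(1-7)), Atp6ap2 (the prorenin receptor) and Nr3c2 (the mineralocorticoid receptor). The table held 17447 genes, and all 7 were among the 13021 that passed the filter on low counts. Heart RNA was sequenced in 15 libraries of male mice, 3 in each of 5 groups, all on the C57BL/6J strain, aged 6 to 8 weeks by the methods and harvested 18 weeks post-surgery. WTSHAM mice were wild type and sham operated, and the methods name no vector for them. WTCKD mice were wild type with subtotal nephrectomy, a surgical model of chronic kidney disease (CKD), and the vector. WTCKD against WTSHAM, also called CKD against sham below, thus differs in surgery and, by the methods, in the vector. These cannot be told apart. WTCKD+RNLS mice were wild type with the same surgery and AAV9-cTnT-RNLS, an adeno-associated virus that carries renalase, a secreted flavoprotein made largely in the kidney, behind the cardiac troponin T promoter of cardiomyocytes. KOCKD and KOCKD+RNLS mice were rnls-/-, a knockout made with TALENs aimed at exon 4, with CKD and either the vector or the virus. The virus groups had CKD, and no knockout sham group was among these libraries. Rnls was not analysed here, and the groups rest on the labels. The labels do not state that the libraries of a group came from separate mice, and p-values measure only the spread between these libraries, which may be technical.

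In the circulating system renin cuts angiotensinogen to angiotensin I, and ACE removes the last residues of that peptide to give angiotensin II. Chymase, stored in the granules of mast cells, can make angiotensin II without ACE. Angiotensin II acts mainly through AT1 receptors, which couple to Gq and raise vascular tone, aldosterone release and, in the heart, growth and matrix production. Angiotensin-(1-7), the ligand of Mas1, opposes many of these effects, and aldosterone binds the mineralocorticoid receptor, which in cardiomyocytes also binds glucocorticoids.

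Libraries held 10480788 to 13424078 counted reads, and these totals set the precision of the low genes below. Cardiomyocyte markers dominated all 15 libraries (Myh6, Tnnt2, Tnni3, Actc1, Myl2 and Pln, 79600 to 109400 CPM in sum, where CPM are reads scaled to a common library size by the TMM method), and the summed lung markers stayed at or under 1.252 CPM. Some other cell markers and the clock genes moved with the virus. The summed clock genes were 535 to 596 CPM in WTCKD and 887 to 1108 CPM in WTCKD+RNLS, and 530 to 919 CPM in KOCKD and 960 to 1164 CPM in KOCKD+RNLS. That sum joins genes that moved in opposite directions. Mean Arntl was 31.8 CPM in WTCKD and 1.88 CPM in WTCKD+RNLS, while mean Dbp was 28.0 and 132 CPM. The summed atrial markers, which report how much atrium a heart sample held, spanned 6.98 to 1351 CPM in WTCKD and 16.5 to 1750 CPM in KOCKD but only 7.44 to 12.4 CPM in KOCKD+RNLS. The part of clock, atrial content or cell makeup in the results was not tested beyond the values given, and in bulk tissue fewer cells of a type and less RNA per cell cannot be told apart.

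By FPKM, which divides reads by gene length and library total, the 7 genes spanned a wide range of levels in heart. Agtr1a had a mean of 24.9 FPKM over the 15 libraries (15.2 to 34.4), and Ace 20.6 FPKM (13.5 to 26.5). The ranges of this pair overlapped, and both were the most abundant of the set. Atp6ap2 followed at 9.23 FPKM (6.64 to 11.6), below every value of Ace. Nr3c2 (2.94 FPKM, 1.998 to 4.25) and Agt (2.88 FPKM, 1.42 to 4.28) had ranges that overlapped. Cma1 and Mas1 were lowest, at 0.788 FPKM (0 to 2.48) and 0.126 FPKM (0.0387 to 0.228). Taking a median count under 10 as near the detection floor, Cma1 was near it with a median of 6 reads, 9 libraries under 10 and 1 at 0. Mas1 sat at the boundary, with a median of 10 reads and 7 libraries under 10.

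**Figure D1:**
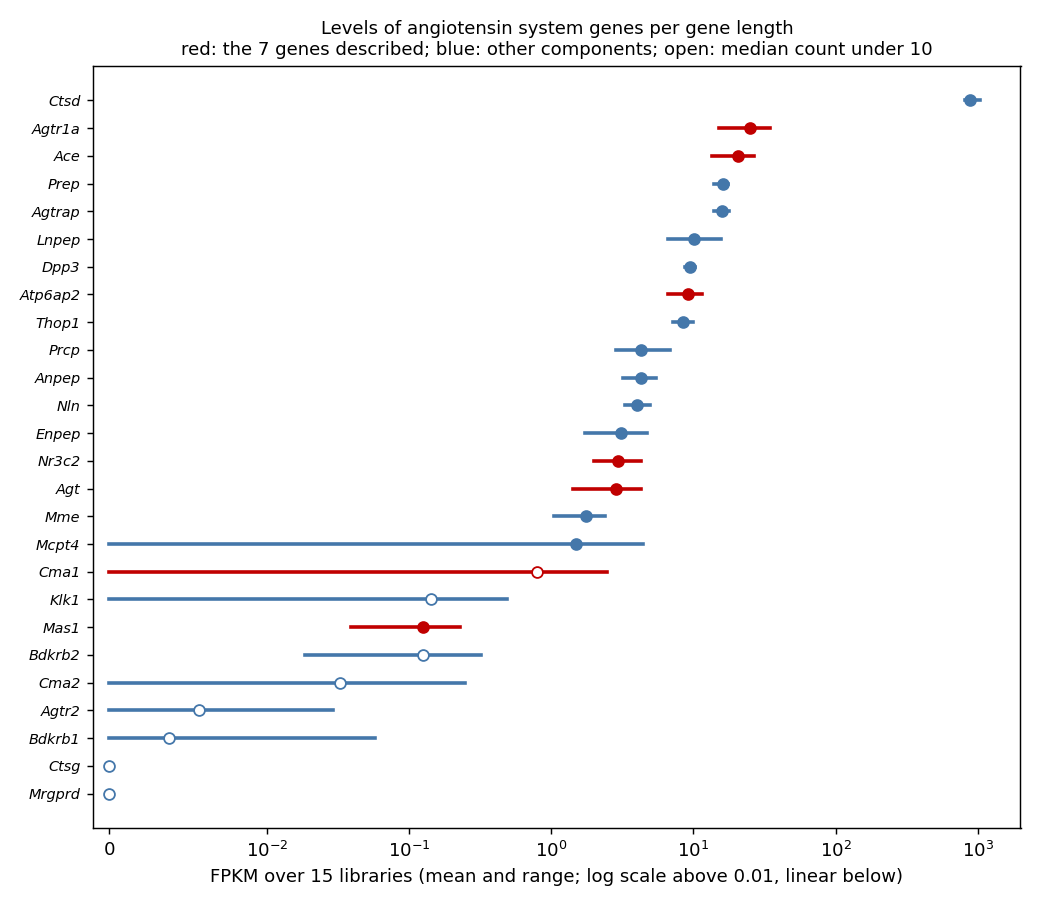
Mean FPKM (point) and range (line) over the 15 libraries for the 7 genes described (red) and other angiotensin components (blue), on an axis that is logarithmic above 0.01 FPKM. Agtr1a and Ace lead the 7 at 24.9 and 20.6 FPKM, and open points mark genes with a median count under 10, Cma1 among them.

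The genes lie apart from one another in the genome. In the mm9 annotation Agt is at chr8:127080434-127093606 (minus strand), Ace at chr11:105829259-105851278 (plus), Cma1 at chr14:56560290-56563498 (minus), Agtr1a at chr13:30428310-30474736 (plus), Mas1 at chr17:13033945-13061009 (minus), Atp6ap2 at chrX:12164927-12194175 (plus) and Nr3c2 at chr8:79423341-79768911 (plus). Antisense genes share 295 exon bases with Ace (Gm11651) and 247 with Nr3c2 (Gm10649). The kit marked strand, but the strand setting of the counting is not given in the sources used here, so reads of these stretches cannot be assigned. Agtr1a and its paralog Agtr1b are 90.8% identical over 1080 coding bases, so reads of the receptors may be shared, and Agtr1b was not analysed here.

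The promoters of Agt and Atp6ap2, genes with called differences below, are shown to set their core motifs side by side. Each run is the 250 bases before the start site, 5′ to 3′ on the strand of the gene, from RefSeq (GRCm38.p6), at chr8:124569707-124569956 (minus) for Agt and chrX:12587509-12587758 (plus) for Atp6ap2, and capitals mark matches to the motifs searched.
Agt: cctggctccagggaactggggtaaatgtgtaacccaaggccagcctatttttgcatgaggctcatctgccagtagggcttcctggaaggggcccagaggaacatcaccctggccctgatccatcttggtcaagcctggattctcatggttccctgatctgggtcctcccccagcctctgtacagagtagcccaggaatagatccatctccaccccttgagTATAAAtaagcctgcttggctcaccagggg
Atp6ap2: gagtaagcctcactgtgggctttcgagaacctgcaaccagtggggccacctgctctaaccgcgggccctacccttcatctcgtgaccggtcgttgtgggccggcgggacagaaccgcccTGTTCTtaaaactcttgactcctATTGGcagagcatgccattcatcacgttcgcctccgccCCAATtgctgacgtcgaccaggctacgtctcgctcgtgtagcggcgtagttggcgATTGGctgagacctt
In Agt the capitals are a TATA box (TATAAA) that begins 30 bases before the start. In Atp6ap2 they are 1 steroid receptor half-site (TGTTCT) and 3 CCAAT boxes, which begin 108, 70 and 15 bases before the start, 2 of them on the other strand and so read ATTGG. On either strand, 12.4% of 32851 mouse promoters of this length hold TATAAA, 33.8% hold CCAAT and 16.1% hold TGTTCT. The clock motifs CACGTG (6.02% of promoters) and TTANGTAA (2.06%) were not in these windows, nor in those of Ace, Cma1, Mas1 and Nr3c2. A promoter of Agtr1a was not used here.

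Agtr1a was the member that separated the groups most clearly, with its lowest levels in sham hearts and its highest in hearts given the renalase virus. WTSHAM libraries held 37.9, 55.1 and 41.9 CPM, and WTCKD libraries 48.5, 59.7 and 58.3 CPM. KOCKD libraries were much like WTCKD at 59.5, 49.5 and 64.9 CPM. Levels were higher in WTCKD+RNLS (85.6, 70.7 and 69.5 CPM) and in KOCKD+RNLS (64.8, 67.2 and 80.0 CPM). All 6 virus libraries lay above all 3 sham libraries, and among CKD hearts only KOCKD replicate 3 reached the lowest virus library. Group means ran from 45.0 ± 8.99 CPM (SD, n = 3) in WTSHAM over 55.5 ± 6.08 in WTCKD and 58.0 ± 7.84 in KOCKD to 70.7 ± 8.15 in KOCKD+RNLS and 75.2 ± 9.004 in WTCKD+RNLS. The middle pair, WTCKD and KOCKD, and the top pair each differed by less than their SD.

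Over all 5 groups, Agtr1a differed with an adjusted p of 0.00979 (edgeR quasi-likelihood test, Benjamini-Hochberg over all genes tested). It stayed under 0.05 with each of the 15 libraries left out in turn (adjusted p 0.00383 to 0.029). Averaged over wild type and knockout, Agtr1a was higher with the virus by 0.36 on the log2 scale (SE 0.10, 1.28-fold, edgeR adjusted p = 0.0204). In wild-type CKD hearts alone the difference was 0.44 (SE 0.14, groups not overlapping, adjusted p = 0.091), and in knockout CKD hearts 0.28 (SE 0.14, groups overlapping, adjusted p = 0.18), so neither passed by itself. WTCKD against WTSHAM gave 0.30 (SE 0.14, adjusted p = 0.287), and KOCKD against WTCKD gave 0.06 (SE 0.14, adjusted p = 0.884). The averaged virus effect missed the threshold in 4 of 12 fits that left out 1 library, those without WTCKD replicate 1 (adjusted p = 0.0599), WTCKD+RNLS replicate 1 (0.0565), KOCKD replicate 2 (0.0547) or KOCKD+RNLS replicate 3 (0.0573).

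AT1 receptors in heart are known from fibroblasts, pericytes and vascular smooth muscle as well as cardiomyocytes, so these markers are given beside the gene. The summed fibroblast markers were 1180 to 1737 CPM in WTCKD and 869 to 1055 CPM in WTCKD+RNLS, and 1019 to 1338 CPM in KOCKD against 833 to 962 CPM in KOCKD+RNLS. Of the 7 fibroblast markers 2 were lower at the threshold in each genotype (4.47% and 16.1% of all genes passed in either direction). In wild type these were the collagen genes Col1a1 and Col3a1, while Pdgfra, Dcn, Lum, Tcf21 and Col1a2 did not pass. In knockout 5 of the 7 changes were negative and 2 positive. The summed markers of pericytes and smooth muscle overlapped between vector and virus hearts (1469 to 1924 against 1573 to 1831 CPM in wild type, 1561 to 1775 against 1726 to 1935 CPM in knockout). Of these 8 markers 1 was higher at the threshold in each genotype (4.47% and 16.1% of all genes passed in either direction). In wild type it was Abcc9 (0.46 on the log2 scale, edgeR adjusted p = 0.0149). The summed cardiomyocyte markers were 81630 to 94320 CPM in WTCKD and 100500 to 109400 CPM in WTCKD+RNLS, and 83020 to 89420 CPM in KOCKD against 93830 to 96430 CPM in KOCKD+RNLS. In wild type all 6 of these markers had positive changes, but in knockout 5 of 6 had negative ones (median -0.08 on the log2 scale), and the higher sum there came from Myh6.

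**Figure D2:**
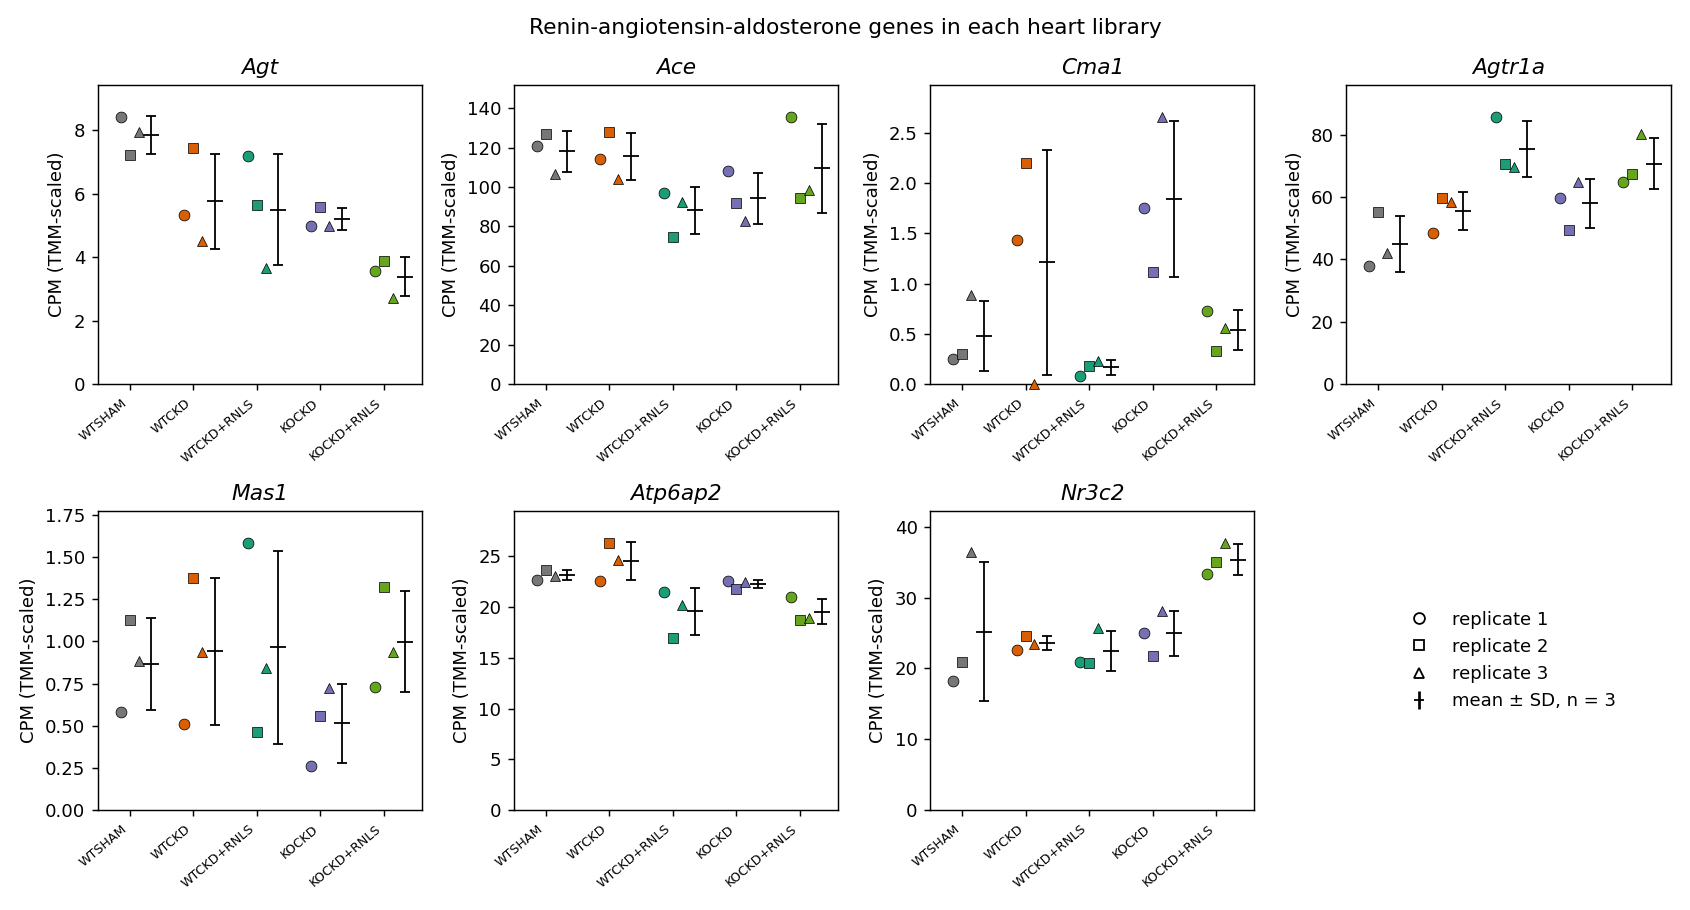
CPM of each gene in every library (circle, square and triangle for replicates 1, 2 and 3), with group mean and SD (n = 3) as bars. Agtr1a is highest in the virus groups, Agt is highest in WTSHAM and lowest in KOCKD+RNLS, and Nr3c2 is high in KOCKD+RNLS and in 1 sham library.

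Agt, the substrate from which every angiotensin peptide is cut, ran the other way. WTSHAM libraries held 8.42, 7.22 and 7.95 CPM (96 to 108 reads), and KOCKD+RNLS libraries 3.58, 3.89 and 2.72 CPM (29 to 47 reads). WTCKD libraries held 5.33, 7.44 and 4.51 CPM, WTCKD+RNLS libraries 7.18, 5.66 and 3.68 CPM, and KOCKD libraries 4.99, 5.59 and 4.995 CPM. The sham hearts were thus at the top of the range, overlapped only by WTCKD replicate 2, and the KOCKD+RNLS hearts at the bottom, overlapped only by WTCKD+RNLS replicate 3. Group means were 7.86 ± 0.606 CPM (SD, n = 3) in WTSHAM, 5.76 ± 1.51 in WTCKD, 5.51 ± 1.76 in WTCKD+RNLS, 5.19 ± 0.346 in KOCKD and 3.39 ± 0.606 in KOCKD+RNLS. The means of WTCKD, WTCKD+RNLS and KOCKD differed by less than the SD of WTCKD.

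The 5 groups differed in Agt with an adjusted p of 0.023 (edgeR). None of the 4 pairs of groups compared passed, and KOCKD+RNLS against WTSHAM was not among them. KOCKD+RNLS against KOCKD gave -0.61 on the log2 scale (SE 0.25, groups not overlapping, edgeR adjusted p = 0.107), WTCKD against WTSHAM -0.45 (SE 0.23, adjusted p = 0.326) and WTCKD+RNLS against WTCKD -0.07 (SE 0.24, adjusted p = 0.912). The difference over all groups missed the threshold without WTSHAM replicate 3 (adjusted p = 0.0558), KOCKD+RNLS replicate 1 (0.0574) or KOCKD+RNLS replicate 3 (0.0768). The summed macrophage markers were also highest in WTSHAM (297 to 358 CPM). They were 204 to 273 CPM in WTCKD, 180 to 201 CPM in WTCKD+RNLS, 173 to 209.6 CPM in KOCKD and 142 to 193 CPM in KOCKD+RNLS, and so lay lower in WTCKD+RNLS than in WTCKD, where Agt overlapped. Their part in the Agt values was not tested.

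Ace, the endothelial peptidase that makes angiotensin II, had the most reads of the 7 genes. WTSHAM libraries held 121, 127 and 107 CPM and WTCKD libraries 114, 128 and 104 CPM, almost the same set of values. WTCKD+RNLS libraries were lower at 97.1, 74.7 and 92.4 CPM, and did not overlap with WTCKD. KOCKD libraries held 108, 91.8 and 82.8 CPM and KOCKD+RNLS libraries 135, 94.5 and 98.3 CPM, which overlapped. WTCKD against WTSHAM gave -0.03 on the log2 scale for Ace (SE 0.14, 95% interval -0.33 to 0.26), an interval that leaves room for modest changes either way. The virus shifted it by -0.39 (SE 0.14, edgeR adjusted p = 0.134) in wild type and by 0.22 (SE 0.14, adjusted p = 0.314) in knockout. The difference between these effects was 0.61 (SE 0.20, unadjusted p = 0.00804, edgeR adjusted p = 0.166), with no gene of the 13021 passing that test at the adjusted threshold by edgeR (0%), 363 by DESeq2 and 17.6% at an unadjusted p under 0.05. Summed endothelial markers were 1372 to 1538 CPM in WTCKD and 1081 to 1192 CPM in WTCKD+RNLS. Of the 7 markers 4 were lower there at the threshold, beside 4.47% of all genes called in either direction. Flt1 went the other way (0.35 on the log2 scale, edgeR adjusted p = 0.103). In knockout hearts the summed endothelial markers were 1172 to 1378 and 1247 to 1315 CPM, with 1 of 7 called higher and 1 lower (16.1% of all genes). Their part in the Ace values was not tested.

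Cma1, the chymase gene, had few reads and its values went together with those of other mast cell transcripts. WTSHAM libraries held 3, 4 and 12 Cma1 reads, WTCKD libraries 17, 24 and 0, and KOCKD libraries 20, 12 and 33. The virus libraries held 1, 2 and 3 reads in WTCKD+RNLS and 9, 4 and 6 in KOCKD+RNLS. No virus library reached 10 reads, and the gene passed the filter on low counts through the other groups. Pooled over 3 libraries and scaled by depth, Cma1 in WTCKD+RNLS was 0.141 times its level in WTCKD (6 against 41 reads, exact 95% interval 0.0489 to 0.334), and in KOCKD+RNLS 0.288 times its level in KOCKD (19 against 65 reads, 0.163 to 0.487). These intervals cover counting error only and leave out the spread between mice.

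Averaged over the genotypes, the virus changed Cma1 by -2.26 on the log2 scale (SE 0.61, edgeR adjusted p = 0.0175), and by -2.25 (adjusted p = 0.0124) in a fit with no filter on low counts. The filter kept Cma1 only through the groups without virus, and both fits use the same few reads. These p-values are therefore descriptions and not separate support. The change was -2.77 in wild type (SE 0.95, adjusted p = 0.114) and -1.76 in knockout (SE 0.75, adjusted p = 0.122). In knockout hearts the groups did not overlap, while in wild type WTCKD replicate 3, at 0 reads, lay below all virus libraries. Without that library the wild-type change was -3.37 (adjusted p = 0.0148). Without WTCKD replicate 2 the averaged change was -1.89 (adjusted p = 0.0607). With the atrial score as a covariate, chosen after seeing the data, it was -0.98 (adjusted p = 0.25). WTCKD against WTSHAM gave 1.29 (SE 0.79, adjusted p = 0.428), with 41 against 19 reads.

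Of the mast cell markers, the granule proteases had high and low libraries like those of Cma1, while Hdc and Kit did not. Reads of Mcpt4, another mast cell protease, were 22, 46 and 0 in WTCKD and 4, 5 and 6 in WTCKD+RNLS, then 32, 22 and 44 in KOCKD and 9, 6 and 15 in KOCKD+RNLS. Tpsb2, a mast cell tryptase, had 14, 33 and 0 reads in WTCKD and 1, 1 and 3 in WTCKD+RNLS, then 18, 12 and 35 in KOCKD and 10, 1 and 10 in KOCKD+RNLS. Cpa3, the mast cell carboxypeptidase, had 15, 31 and 0 reads in WTCKD and 3, 1 and 5 in WTCKD+RNLS. WTCKD replicate 3 thus had no read of Cma1, Mcpt4, Tpsb2 or Cpa3. In WTSHAM, Mcpt4 had 0, 11 and 35 reads, Tpsb2 5, 4 and 18, and Cpa3 2, 5 and 16. Sham replicates 1 and 2 were no higher than the highest virus library for each of these genes, so low reads were not particular to the virus groups. Kit, which is not limited to mast cells, had 53 to 79 reads in WTCKD, 32 to 77 in WTCKD+RNLS, 68 to 80 in KOCKD and 71 to 97 in KOCKD+RNLS. Hdc, the enzyme of histamine synthesis, had 23, 40 and 12 reads in WTCKD and 8, 26 and 23 in WTCKD+RNLS, then 21, 14 and 27 in KOCKD and 24, 23 and 11 in KOCKD+RNLS. Of the 9 listed markers 8 were in the table and 5 were tested. Of these 1 (Tpsb2) was lower at the threshold in the averaged comparison, beside 7.33% of all genes. Tpsb2 itself had at most 10 reads in the virus libraries, and the IgE receptor genes Ms4a2 and Fcer1a had at most 4 reads. The median averaged change of the 5 was -1.96 on the log2 scale, beside -0.01 over all genes. The summed level of the 8 was 7.74 to 20.9 CPM in WTCKD, 4.09 to 9.11 in WTCKD+RNLS, 13.3 to 15.6 in KOCKD and 10.3 to 12.3 in KOCKD+RNLS, a sum in which Kit and Hdc weigh most.

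**Figure D3:**
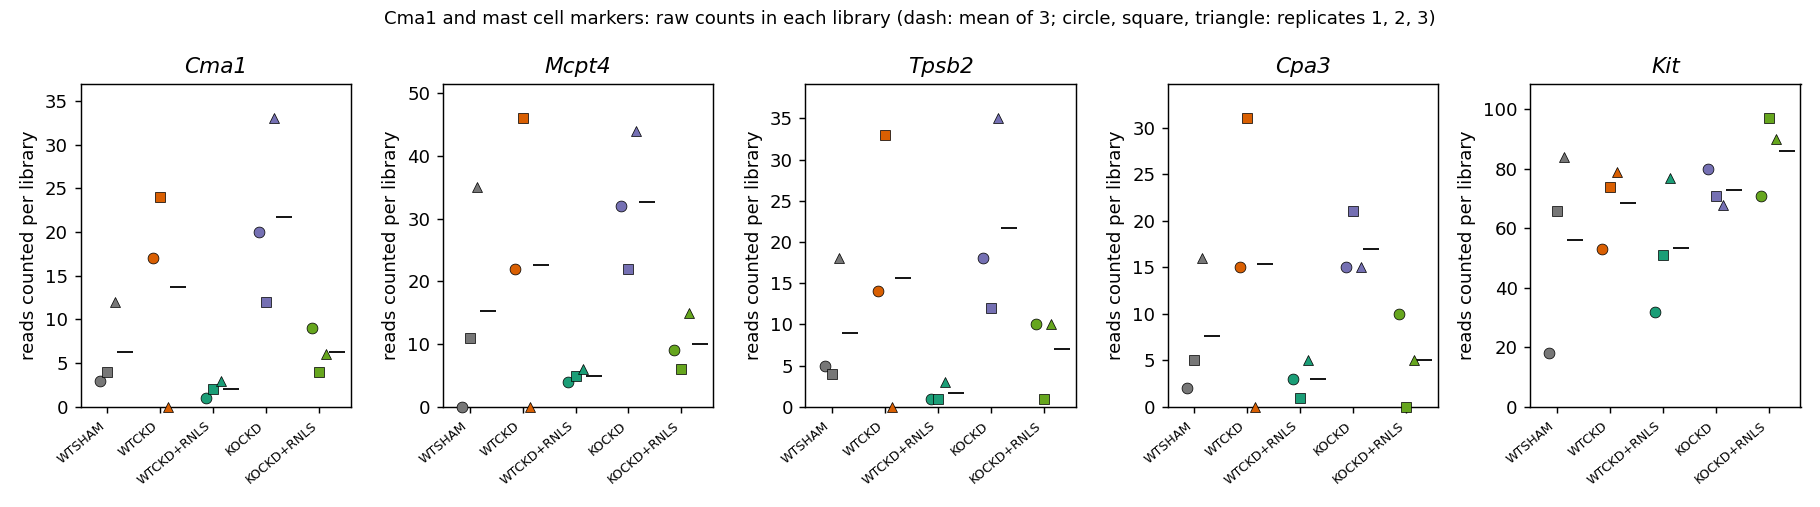
Raw reads per library of Cma1 and 4 mast cell markers, with the mean of 3 as a dash. Cma1, Mcpt4, Tpsb2 and Cpa3 are low in both virus groups and in WTSHAM replicates 1 and 2, and at 0 in WTCKD replicate 3. Kit is spread over all groups.

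Mas1, the receptor of the counter-regulatory arm, was at 3 to 19 reads in every library. Counts were 7, 15 and 12 in WTSHAM, 6, 15 and 11 in WTCKD, 19, 5 and 11 in WTCKD+RNLS, 3, 6 and 9 in KOCKD and 9, 16 and 10 in KOCKD+RNLS. Apart from KOCKD, where all 3 libraries were under 10 reads, the groups covered the same range. No comparison passed (adjusted p 0.26 to 0.969 over the 4 pairs of groups, edgeR), and the 95% interval of CKD against sham, -0.97 to 1.18 on the log2 scale, left room for doublings in either direction. The highest ratio, KOCKD+RNLS against KOCKD, was 1.92 on pooled reads (35 against 18, exact 95% interval 1.06 to 3.60, counting error only), with a fitted change of 0.93 (SE 0.55, adjusted p = 0.26). At this depth changes of Mas1 within these intervals were not detectable.

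Atp6ap2 encodes the (pro)renin receptor, which is also an accessory subunit of the vacuolar H+-ATPase, and it had the tightest replicates of the set. WTSHAM libraries held 22.7, 23.7 and 23.1 CPM, WTCKD libraries 22.6, 26.4 and 24.7 CPM, and KOCKD libraries 22.6, 21.8 and 22.5 CPM. The virus libraries held 21.5, 17.0 and 20.2 CPM in WTCKD+RNLS and 21.0, 18.8 and 18.9 CPM in KOCKD+RNLS. All 6 virus libraries lay below all 9 others, narrowly, with 21.5 CPM in WTCKD+RNLS replicate 1 against 21.8 CPM in KOCKD replicate 2. The share of all genes with such a split was not counted. Averaged over the genotypes the virus changed Atp6ap2 by -0.26 on the log2 scale (SE 0.07, 0.838 times, edgeR adjusted p = 0.0231). The change was -0.32 (SE 0.10, adjusted p = 0.0861) in wild type and -0.19 (SE 0.10, adjusted p = 0.224) in knockout, and the difference over all 5 groups had an adjusted p of 0.0679. The averaged call was lost without WTCKD replicate 2 (-0.22, adjusted p = 0.0655), KOCKD+RNLS replicate 2 (-0.24, 0.0555) or KOCKD+RNLS replicate 3 (-0.24, 0.0506), and with offsets fitted to gene length in every library (-0.20, 0.0978), and with the atrial score as a covariate (-0.22, 0.08).

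Other subunits of the V-ATPase, which acidifies lysosomes and secretory vesicles, had small negative changes with the virus in knockout hearts and were split in wild type. Of 16 tested, 16 were negative in the averaged comparison, with a median of -0.11 on the log2 scale beside -0.01 over all genes. Only Atp6v1f passed (-0.29, edgeR adjusted p = 0.011), while 7.33% of all genes were lower at the threshold. In knockout hearts 16 of 16 were negative as well (median -0.18), with Atp6v0b and Atp6v1f past the threshold (16.1% of all genes in either direction). In wild type 9 of 16 were negative (median -0.04) and none passed (4.47% of all genes).

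Nr3c2, the receptor for aldosterone and cardiac glucocorticoids, was high in KOCKD+RNLS. Those libraries held 33.3, 35.1 and 37.8 CPM. WTCKD libraries held 22.7, 24.6 and 23.4 CPM, WTCKD+RNLS libraries 20.9, 20.8 and 25.7 CPM, and KOCKD libraries 25.0, 21.8 and 28.1 CPM. WTSHAM was split, with 18.3 and 20.9 CPM in replicates 1 and 2 but 36.4 CPM in replicate 3. The KOCKD+RNLS hearts lay above every CKD heart of the other groups, and only that sham library fell among them. The group mean was 35.4 ± 2.24 CPM (SD, n = 3) in KOCKD+RNLS, and 25.2 ± 9.81 in WTSHAM.

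KOCKD+RNLS against KOCKD gave 0.50 on the log2 scale (SE 0.19, 1.41-fold, edgeR adjusted p = 0.0825), and WTCKD+RNLS against WTCKD -0.07 (SE 0.19, adjusted p = 0.891). The difference between the 2 effects was 0.57 (SE 0.27, adjusted p = 0.29), so an effect confined to knockout hearts was not shown. The test over 5 groups had an adjusted p of 0.0735, and 0.0021 without WTSHAM replicate 3. The knockout change passed in a fit of just those 6 libraries (0.50, adjusted p = 0.00669) and with the atrial score as covariate (0.72, adjusted p = 0.0154), and shrank to 0.25 (adjusted p = 0.425) with gene length offsets. In this comparison these settings called 3115, 2670 and 700 of all genes, against 2095 in the main fit, so a call was easier to reach in the first 2. At 8969 bases Nr3c2 is the longest of the 7 genes. CKD against sham gave -0.10 (SE 0.19, adjusted p = 0.839), which turned to 0.26 without WTSHAM replicate 3.

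Counted over the 7 genes, none passed for CKD against sham (2.3% of all genes tested did), none had an unadjusted p under 0.05 (17.6%), and none had groups that did not overlap (22.5% of all genes). None passed for the virus in wild-type CKD (4.47% of all genes), although 4 had an unadjusted p under 0.05 (20.2% of all genes) and 3, namely Ace, Agtr1a and Atp6ap2, did not overlap (21.2%). None passed for the virus in knockout CKD (16.1% of all genes), where 3 had an unadjusted p under 0.05 (31.6%) and 5 did not overlap (40.6%). For KOCKD against WTCKD none passed by edgeR (0% of all genes, 10.1% at an unadjusted p under 0.05, and 9 genes by DESeq2), no member was under 0.05 unadjusted, and none had groups that did not overlap (19.3%). In the averaged virus comparison 3 passed, Agtr1a upwards (10.7% of all genes) and Cma1 and Atp6ap2 downwards (7.33%), against 18% of all genes in either direction, with Cma1 past the low-count filter only through the groups without virus. The same 3 were the members with an unadjusted p under 0.05 there (32.3% of all genes). Over all 5 groups 2 passed, Agtr1a and Agt (22.2% of all genes). The comparisons of WTCKD with sham, with virus and with KOCKD share the WTCKD libraries, and those in knockout hearts share the KOCKD libraries.

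**Figure D4:**
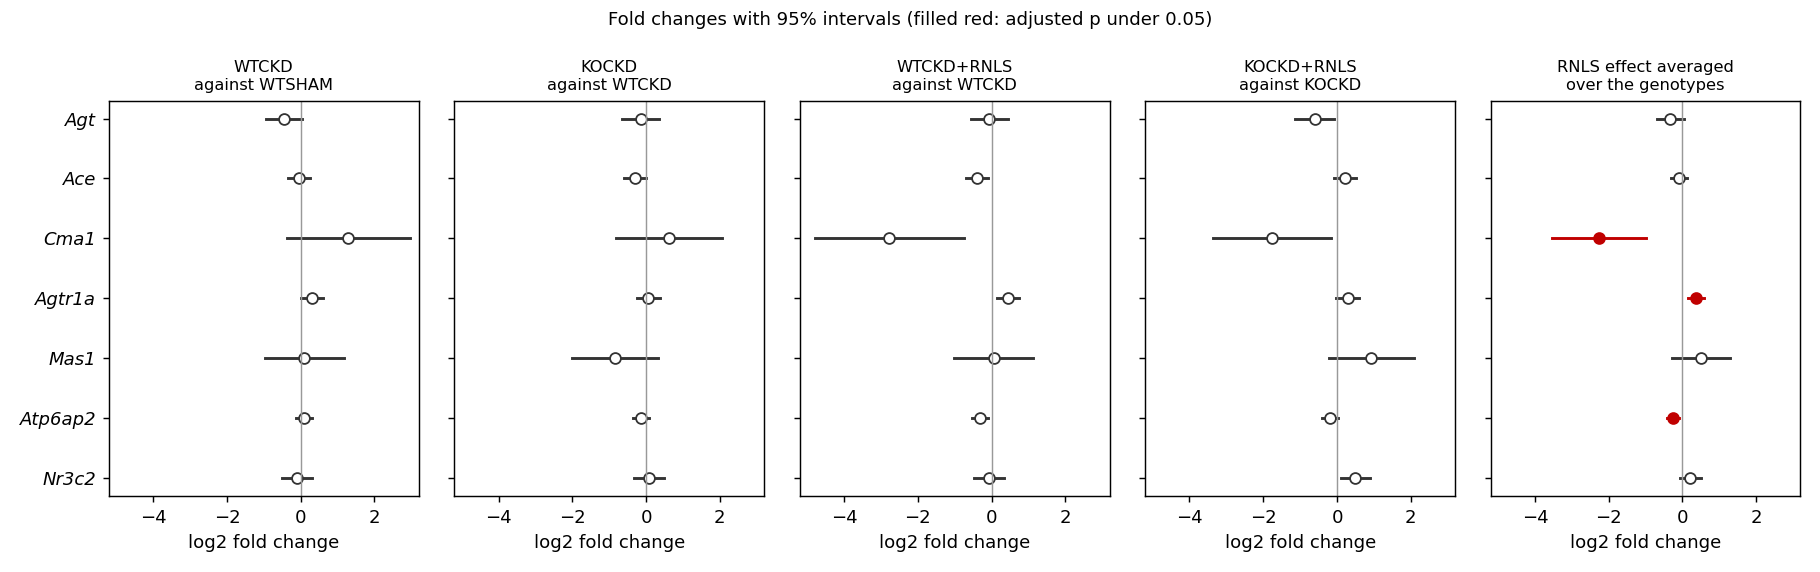
Log2 fold changes (points) with 95% intervals (lines) of the 7 genes in the 4 pairs of groups and in the averaged virus comparison, from edgeR, with filled red marks for an adjusted p under 0.05. Only Cma1 (-2.26), Agtr1a (0.36) and Atp6ap2 (-0.26) in the averaged comparison are marked, and the intervals of Cma1 and Mas1 are the widest. Cma1 passed the filter on low counts only through the groups without virus.

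Among the remaining angiotensin genes, the called differences described here were in peptidases. Of 22 listed, 20 were in the table and 14 were tested. Ren1 and Agtr1b were not analysed here, Ctsg and Mrgprd were at 0 in all libraries, and Agtr2, the AT2 receptor, had at most 1 read. Ctsd, the lysosomal cathepsin D that can also cut angiotensinogen, was the most abundant at 887 FPKM. Lnpep, the insulin-regulated aminopeptidase that binds angiotensin IV, was lower in WTCKD than in WTSHAM (-0.74 on the log2 scale, edgeR adjusted p = 0.0175) and higher in KOCKD+RNLS than in KOCKD (0.82, adjusted p = 0.00389). Its CPM were 87.8 ± 11.5 (SD, n = 3) in WTSHAM, 52.5 ± 4.51 in WTCKD, 63.8 ± 18.1 in WTCKD+RNLS, 48.3 ± 0.811 in KOCKD and 85.0 ± 9.90 in KOCKD+RNLS. Prcp, a carboxypeptidase that inactivates angiotensin II, was lower in the averaged comparison (-0.48, adjusted p = 0.026).

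Downstream of AT1, 24 signalling genes were tested. In CKD against sham 1 rose, Tgfb1 (0.53 on the log2 scale, edgeR adjusted p = 0.0145), the growth factor that drives cardiac fibrosis. Of all genes 2.3% passed there in either direction. With the virus in wild-type CKD 2 fell (4.47% of all genes passed), Tgfb1 (-0.58, adjusted p = 0.00753) and Rcan1 (-0.73, adjusted p = 0.00468), a calcineurin regulator that is itself induced by calcineurin. Rcan1 was also lower in KOCKD+RNLS (-0.85, adjusted p = 0.0015), where 4 genes rose, the phospholipase Plcb4, the kinases Prkce and Jak2 and the calcium channel Itpr2. Of all genes 16.1% passed in that comparison. Rcan1 levels were 127 ± 4.22 CPM (SD, n = 3) in WTSHAM, 138 ± 14.1 in WTCKD, 83.1 ± 9.52 in WTCKD+RNLS, 129 ± 25.2 in KOCKD and 71.8 ± 3.196 in KOCKD+RNLS. The median of the 24 in the averaged comparison was -0.03, beside -0.01 over all genes. There 3 were higher (10.7% of all genes), namely Plcb4, Prkce and Itpr2, and 4 lower (7.33%), namely Rcan1, Tgfb1, Grk5 and Rgs4.

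On the corticosteroid side, 4 genes of hormone synthesis, conversion and reception were tested of 7 in the table. Cyp11b2, the aldosterone synthase gene, was not analysed here. Nr3c1, the glucocorticoid receptor, rose in KOCKD+RNLS against KOCKD (0.43 on the log2 scale, edgeR adjusted p = 0.00204), from 84.2 ± 1.77 to 114 ± 3.81 CPM (SD, n = 3). The other 3 did not pass in any pair of groups. Of 13 tested targets of the mineralocorticoid receptor, Sgk1, a kinase that raises sodium uptake, was higher in WTCKD than in WTSHAM (1.07, adjusted p = 0.0469). Its levels were 159 ± 29.7 against 75.5 ± 27.3 CPM. With the virus Zbtb16 (1.53, adjusted p = 0.0211) and Atp1b1 (0.24, adjusted p = 0.0402) rose in wild type, and Per1 (1.502, adjusted p = 0.0122) rose and Cnksr3 (-0.51, adjusted p = 0.0371) fell in knockout. In the averaged comparison 4 of the 13 rose (10.7% of all genes), Per1, Zbtb16, Tsc22d3 and Lcn2, and 2 fell (7.33%), Cnksr3 and Lgals3. These targets also respond to glucocorticoids, and Per1 is a clock gene as well. Of 13 clock genes 7 were higher and 3 lower at the threshold with the virus in wild type (4.47% of all genes passed in either direction). In knockout 7 were higher and 2 lower (16.1% of all genes).

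Patterns were compared by the correlation of log2 CPM over the 15 libraries, among the 11624 genes with a mean log2 CPM of at least 1. The mast cell genes Mcpt4, Tpsb2 and Cpa3 lay under that floor and were not searched. The patterns most like Agtr1a were those of Eny2 (r = 0.894, and 0.776 after removing group means), Lgi3 (0.879 and 0.505) and Cirbp (0.873 and 0.897). For Agt they were the chemokine genes Ccl9 (0.897 and 0.61) and Ccl6 (0.892 and 0.617) and Tm6sf1 (0.885 and 0.645). Atp6ap2 was most like Tspan18 (0.915 and 0.745), Ace most like Vsir (0.882 and 0.8), Nr3c2 most like Sox12 (0.849 and 0.687), Cma1 most like Rnf130 (0.853 and 0.7) and Mas1 most like Nckap5l (0.872 and 0.864). The libraries share depth, scaling and group differences, and the best of so many genes is high by selection, so these are descriptions.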

How the data were processed

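Heart RNA in 15 libraries was sequenced with a stranded TruSeq kit. By the methods, the authors ran Trimmomatic, dropped reads of low quality or with poly-N, mapped the others to mm9 with hisat2 (the processing notes name GRCm39), counted reads with htseq-count and deposited the raw counts. The deposited FPKM were computed with cufflinks by the authors, and from the values equal count over gene length and total. Versions, annotation and strand option are not given in the sources used here. Of the symbols, 86.2% matched the mm9 annotation used for positions, whose gene lengths differ from those of the table for some genes.

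Counts were analysed in R 4.3.3 with edgeR 4.0.16 (TMM, filterByExpr with a minimum count of 10, group as the only term, all 15 libraries, quasi-likelihood tests, Benjamini-Hochberg over 13021 genes, threshold 0.05). FPKM were used for levels only. Alternatives were no filter, RLE size factors, DESeq2 1.42.0, the replicate number as block, only the libraries of a comparison, gene length offsets and each library left out. Added after seeing the data were an atrial score as covariate and leaving out WTSHAM and WTCKD replicate 3 together. The code was tested on simulated data. The study's rule on fold change and unadjusted p was not used here. Some listed genes are not reported here. The members and gene lists were chosen with earlier results of these data known. Named genes are the 7 members, list genes with an adjusted p under 0.05, list genes near the floor, and the genes most correlated with each member. Same-numbered libraries did not deviate together (5 of 30 pairs with r over 0.1).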

Additional observations from a re-analysis of the deposited data

How the results depend on the processing

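The members called changed in number under these settings. In wild-type CKD the virus gave 0, and 1 with DESeq2 (Agtr1a), 1 with WTSHAM and WTCKD replicate 3 left out together (Cma1) and 0 to 1 with each library left out. Of all genes 582 passed there in the main fit, 867 with DESeq2 and 489 with the 2 libraries left out together. In knockout CKD the virus gave 0, and 1 with the replicate block (Nr3c2), 2 with only the libraries of the comparison (Cma1 and Nr3c2), 1 with the atrial score (Nr3c2), 2 with the 2 libraries left out together (Cma1 and Nr3c2) and 0 with any single library left out. Of all genes 2095 passed there in the main fit. The counts were 1909 with the block, 3115 with only those libraries, 2670 with the atrial score and 1868 with the 2 libraries left out. The averaged effect gave 3, and 1 with the atrial score (Agtr1a), 2 with gene length offsets or with the 2 libraries left out together (Cma1 and Agtr1a each time) and 1 to 3 with each library left out, the 1 being without WTCKD replicate 2 or KOCKD+RNLS replicate 3. Of all genes 2342 passed there in the main fit. The counts were 2195 with the atrial score, 1747 with the offsets and 2246 with the 2 libraries left out. The test over 5 groups gave 2, and 5 with DESeq2, 4 with the atrial score, 4 with the 2 libraries left out together and 1 to 3 with each library left out, the 1 being without KOCKD+RNLS replicate 1 or 3. Of all genes 2887 passed there in the main fit. The counts were 3883 with DESeq2, 3101 with the atrial score and 2082 with the 2 libraries left out. The cause of these changes in number was not tested. The block also moved the test over 5 groups from 2 to 3 (Nr3c2 added) and changed no other call. The replicate numbers do not pair the libraries (same-number correlations -0.36 to 0.334), so the block is a description only.

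Changes of sign touched small values. With gene length offsets CKD against sham gave 0.0027 for Ace and 0.017 for Nr3c2, and with the 2 libraries left out together 0.27 for Nr3c2. With the atrial score the wild-type virus effect on Nr3c2 was 0.047. With each library left out, CKD against sham ran from -0.27 to 0.41 for Mas1, -0.12 to 0.039 for Ace and -0.28 to 0.26 for Nr3c2. The wild-type virus effect ran from -0.49 to 0.43 for Mas1 and -0.31 to 0.17 for Agt, and KOCKD against WTCKD from -0.028 to 0.16 for Agtr1a, -0.30 to 0.072 for Agt and -0.0091 to 0.17 for Nr3c2. Gene length offsets changed the count of all genes called for the virus in knockout CKD from 2095 to 700, and DESeq2 changed that for CKD against sham from 299 to 568. With few reads, Cma1 and Mas1 could not show modest changes at this depth.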

Other observations

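Markers of other cells were measured in the same libraries. Of 6 macrophage markers, none passed for CKD against sham (2.3% of all genes did) or for the virus in wild type (4.47%). With the virus in knockout 1 was lower (edgeR, 16.1% of all genes passed in either direction). Of 7 fibroblast markers 2 were lower with the virus in wild type (4.47% of all genes passed) and 2 in knockout (16.1%), those in wild type being collagen genes. Summed adipocyte markers were 0.0851 to 17.3 CPM in WTCKD, 0.334 to 2.07 CPM in WTCKD+RNLS, 0 to 24.2 CPM in KOCKD and 0 to 9.18 CPM in KOCKD+RNLS, with none of 4 tested past the threshold in any pair of groups. The red cell genes Hba-a1 and Alas2 summed to 15.5 to 152 CPM in WTSHAM, 8.62 to 25.2 CPM in WTCKD, 49.0 to 117 CPM in WTCKD+RNLS, 12.3 to 102 CPM in KOCKD and 16.3 to 72.2 CPM in KOCKD+RNLS, and neither gene passed in any of the 4 pairs of groups. Of 5 atrial markers tested 3 were lower in KOCKD+RNLS than in KOCKD (16.1% of all genes passed in either direction). The KOCKD libraries themselves spanned 16.5 to 1750 CPM in the summed atrial markers.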
